A study of Arabidopsis thaliana with 12 samples.

Results

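The shoot apical meristem is the small dome of dividing cells at the tip of the stem from which every leaf of the plant arises. In Arabidopsis a small set of transcription factors and receptors holds its centre undifferentiated, marks the border between the meristem and each new leaf, sets the upper and lower side of the leaf and limits how long its cells divide. The 46 loci described here carry these regulators, and were taken by gene name from 36101 loci of the processed tables. They hold 30 named regulators of the meristem, organ boundary, leaf side and organ growth, and 16 loci named TCP with a number, a family of transcription factors that steers leaf cells out of division or keeps them in it. TCP factors listed under another name were not taken in.

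RNA was sequenced from 12 libraries of Arabidopsis seedlings of the ecotype Columbia-0, in 4 groups of 3. Seedlings grown for 2 weeks were pretreated over 3 days, either with a long-chain signal molecule of Gram-negative bacteria (oxo-C14-HSL, 6 µM) or with its solvent acetone, and every group was then given 100 nM flg22, a peptide of bacterial flagellin, for 2 h. One pair of groups was labelled Col-0, the wild type, and the other ali1, a single T-DNA line carrying an insertion in ALI1 (At5g14470). There were thus no seedlings without flg22 and no seedlings without solvent or oxo-C14-HSL. The question behind the design was how a pretreatment with the bacterial molecule alters the answer of each genotype to flg22.

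For each label the tables hold 1 value per group, in FPKM (fragments per kilobase of transcript, scaled to the number sequenced), which the authors computed over the 3 libraries of the group. No value per library was analysed here, so no spread between replicates, standard error or test was computed for any difference below, and the authors' own test columns were not used. A ratio is that of the oxo-C14-HSL value to the acetone value, on the scale of log2(FPKM + 0.1). The 2 tables come from separate runs of the authors' software, and levels set across the labels rest on both runs. From the spacing of low FPKM values, each group was estimated to hold about 67700000 to 72500000 fragments. The libraries labelled Col-0 had 14.98 and 11.07 FPKM of ALI1 itself, after acetone and oxo-C14-HSL, and those labelled ali1 had 27.44 and 30.14 FPKM, so that the Col-0 mean was 45.2% of the ali1 mean. This order goes against an insertion that lowers the transcript, and a description field of the labels also names the other genotype's comparison. The groups are therefore called by their labels throughout.

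Of the 46 loci, 32 had a mean of at least 1 FPKM over the 2 groups of a table, the same number under both labels, and 14 lay below it in both. Of the 32, 2 were at least 2-fold higher after oxo-C14-HSL in the table labelled Col-0, ANT and AIL6, beside 1.58% of the 16854 nuclear loci past the same filter. None was at least 2-fold lower, beside 0.415% of all loci. At a limit of 1.5-fold, 4 of 32 were higher (BOP1 and YAB5 joined them), beside 6.39% of all loci, and 0 were lower, beside 1.75%. REV, at 1.499-fold, lay just outside. Under the ali1 label, 0 of 32 were past 2-fold in either direction, beside 0.334% of 16764 loci higher and 0.543% lower, and 0 were past 1.5-fold, beside 1.02% higher and 2.13% lower. The counts of 2 and 4 loci are too few to set the members apart, and most of their differences lay below either limit. Against the running median of loci of like level ANT came to log2 0.97, short of 2-fold. BOP1 came to 0.41 and YAB5 to 0.53, both short of 1.5-fold. With a pseudocount of 1 neither ANT nor AIL6 reached 2-fold. BOP1, with 0.8283 FPKM after acetone and 1.365 after oxo-C14-HSL, passed the filter under the Col-0 label through the latter group.

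The median log2 ratio of the 32 loci was 0.21 under the Col-0 label, where the median of all loci was -0.02, and 23 of the 32 were above 0, beside 46.8% of all loci. The 19 loci outside the TCP family had a median of 0.41 with 16 above 0, and the 13 TCP loci one of 0.13 with 7 above 0. Under the ali1 label the median of the 32 was 0.06, beside 0.01 over all loci, and 23 of the 32 were again above 0, beside 53.2%. The difference between the labels had a median of 0.21 over the 32 loci, with 22 of them higher in the Col-0 table, beside -0.03 and 45.5% over all 16526 loci past the filter in both. With no replicate values, whether this difference exceeds the spread between libraries was not testable.

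**Figure D1:**
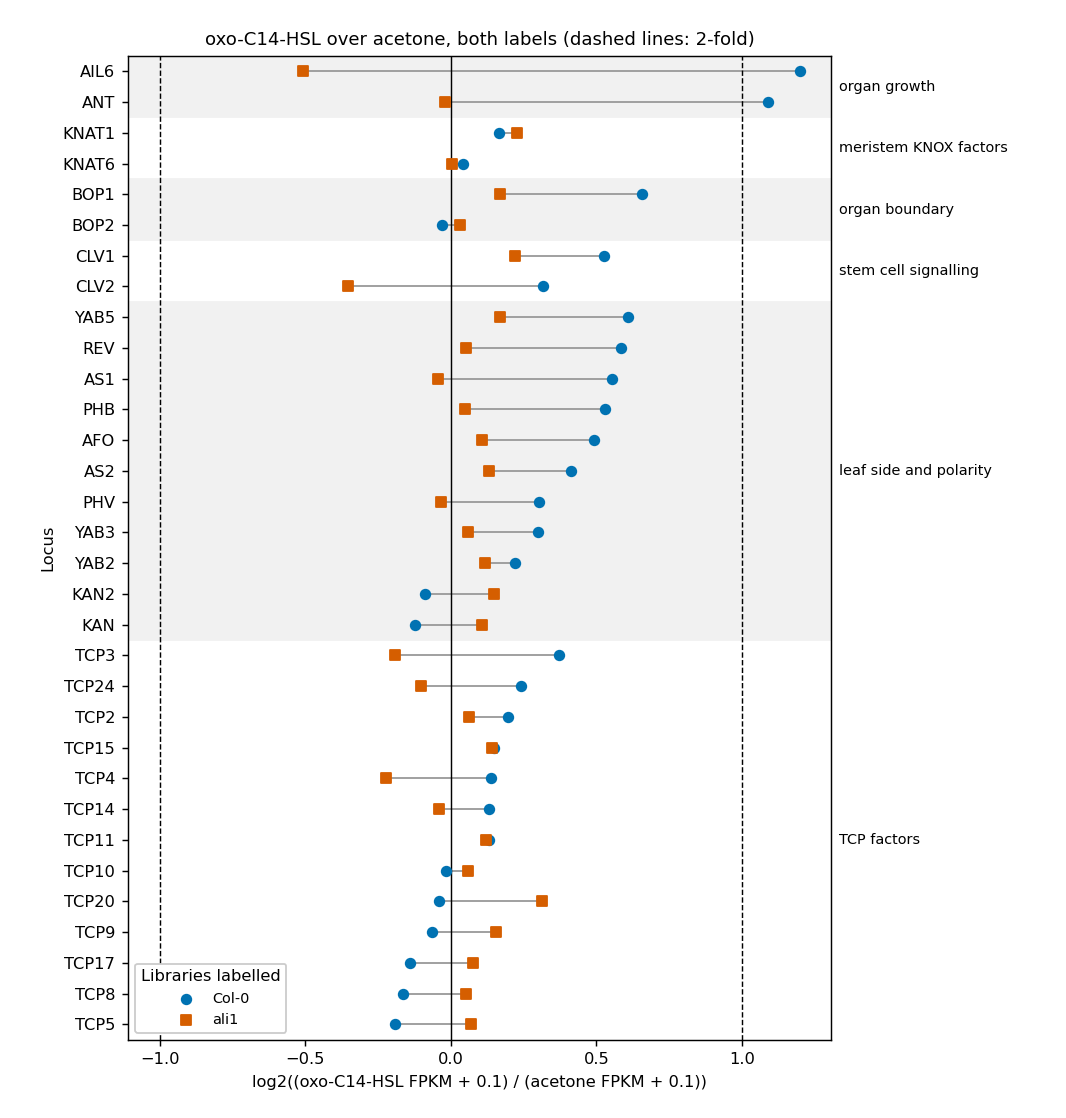
The log2 ratio of oxo-C14-HSL over acetone for the 32 loci with a mean of at least 1 FPKM, as circles for the libraries labelled Col-0 and squares for those labelled ali1, joined by a line for each locus and ordered by role. The dashed lines mark 2-fold. ANT and AIL6 lie past the upper one under the Col-0 label at 1.09 and 1.20, and the ali1 values of all 32 loci lie between -0.51 and 0.31.

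In the Col-0 table the ratio also moved with the level of a locus. The median log2 ratio was 0.24 in the lowest eighth of loci by mean FPKM, those from 1.0 to 2.354 FPKM, and -0.10 in the highest, while in the ali1 table it was -0.0042 in the lowest and 0.0044 in the highest. Set against the running median of loci of like level, the median of the 32 members under the Col-0 label was 0.19, that of the 19 loci outside the TCP family 0.34, and that of the TCP loci 0.06.

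**Figure D2:**
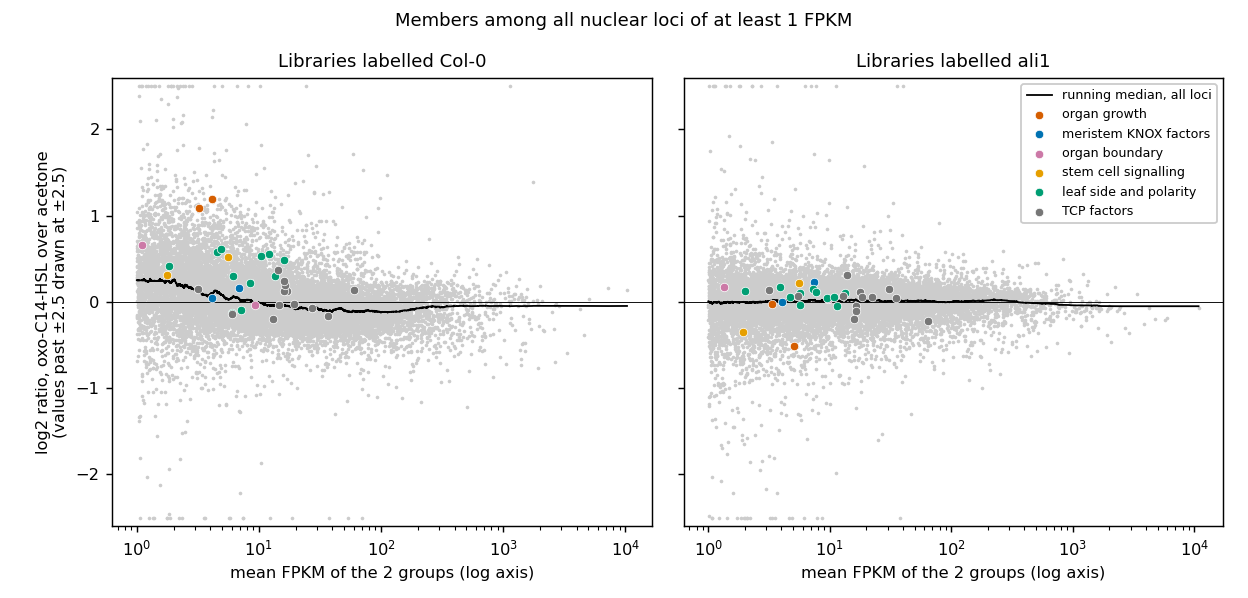
The log2 ratio of oxo-C14-HSL over acetone against the mean FPKM of the 2 groups of a table (log axis), for the 16854 and 16764 nuclear loci past the filter (grey) and the members, coloured by role, with the running median of all loci as a line. Under the Col-0 label the line starts above 0 at low levels, and most members outside the TCP family lie above it. Under the ali1 label the line stays near 0 and the members spread to both sides.

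The organ growth genes had the largest ratios under the Col-0 label. AINTEGUMENTA (ANT) and its relatives AIL6 and AIL7 encode AP2-domain transcription factors that keep cells of young organs dividing and act redundantly in the meristem. ANT (AT4G37750, chr4:17739514-17742407, plus strand, TAIR10) had 2.04 FPKM after acetone and 4.456 after oxo-C14-HSL under the Col-0 label, and 3.351 and 3.3 FPKM under the ali1 label. The acetone group labelled Col-0 thus stood apart as low and its oxo-C14-HSL partner as high, with both ali1 groups level between them. The ratio was 2.13-fold (log2 1.09) under the Col-0 label and 0.985-fold (log2 -0.02) under ali1. ANT has 1 annotated mRNA, and its FPKM correspond to about 270 and 631 fragments in the Col-0 groups, which gives a depth-scaled ratio of 2.18 with a 95% interval of 1.89 to 2.53 (exact binomial). Such intervals cover counting error only, not the spread between seedlings or libraries.

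AIL6 (AT5G10510, chr5:3315401-3322935 in the tables) had 2.448 FPKM after acetone and 5.744 after oxo-C14-HSL under the Col-0 label, and 5.947 and 4.156 FPKM under the ali1 label. Its level was lowest in the acetone group labelled Col-0, and the other 3 groups were all at least 4.156 FPKM. The ratio was 2.29-fold (log2 1.20) under the Col-0 label and 0.704-fold (log2 -0.51) under ali1, the highest and the lowest of the 32 loci. The span given for AIL6 also covers RBK1, a kinase gene on the opposite strand whose annotated end overlaps that of AIL6. RBK1 has a value of its own, at a ratio of 1.17-fold under the Col-0 label and 0.809-fold under ali1. The sources used here do not say whether the counting used strand, so reads of the overlap cannot be assigned to one of them.

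AIL7, with 0.405 and 0.897 FPKM under the Col-0 label and 0.8261 and 0.7335 under ali1, lay below the filter and was likewise lowest in the acetone group labelled Col-0. LEP (LEAFY PETIOLE, an ERF-type factor that promotes blade tissue on the leaf stalk) was also below it on average, and its ratios differed most between the labels, by 3.75 on the log2 scale. It had 0.09537 FPKM after acetone and 0.6426 after oxo-C14-HSL under the Col-0 label, and 1.129 and 0.2481 FPKM under the ali1 label. The direction was opposite under the labels, at log2 1.93 and -1.82. These values stand for about 6 and 43 fragments in the Col-0 groups, a depth-scaled ratio of 6.70 with a 95% interval of 2.84 to 19.2, and for 72 and 16 fragments in the ali1 groups, a ratio of 0.219 (0.119 to 0.38). JAG (JAGGED), a zinc finger factor that sustains blade growth, had 0.3204 and 0.4274 FPKM under the Col-0 label and 0.4694 and 0.5462 under ali1, higher after oxo-C14-HSL under both.

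The class I KNOX homeodomain factors keep meristem cells from differentiating, and are switched off where a leaf forms. SHOOT MERISTEMLESS (STM), the member on which the meristem itself depends, had 0.3113 FPKM after acetone and 0.7087 after oxo-C14-HSL under the Col-0 label, and 0.5574 and 0.5604 under ali1. With about 32 and 77 fragments in the Col-0 groups its depth-scaled ratio was 2.25 (1.47 to 3.51), and in the ali1 groups it was 1.00 (0.686 to 1.47). KNAT2 showed the same shape at 0.4837 and 0.7089 FPKM against 0.7134 and 0.7003. The more abundant KNAT1 (BREVIPEDICELLUS), with 6.478 and 7.284 FPKM under the Col-0 label and 6.83 and 8.015 under ali1, and KNAT6, with 4.053 and 4.175 against 4.035 and 4.04, had log2 ratios of 0.17 and 0.23, and of 0.04 and 0.002. Within this family the low members, STM and KNAT2, thus differed between the Col-0 groups by more than the abundant ones. The interval of KNAT2, 1.02 to 2.11, overlapped that of KNAT1, 1.02 to 1.24. Of 7867 low nuclear loci 64.7% were also higher after oxo-C14-HSL in that table, so the contrast is not particular to this family. A bulk library cannot tell fewer cells of a type from less RNA per cell, and STM is confined to the meristem in the shoot.

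**Figure D3:**
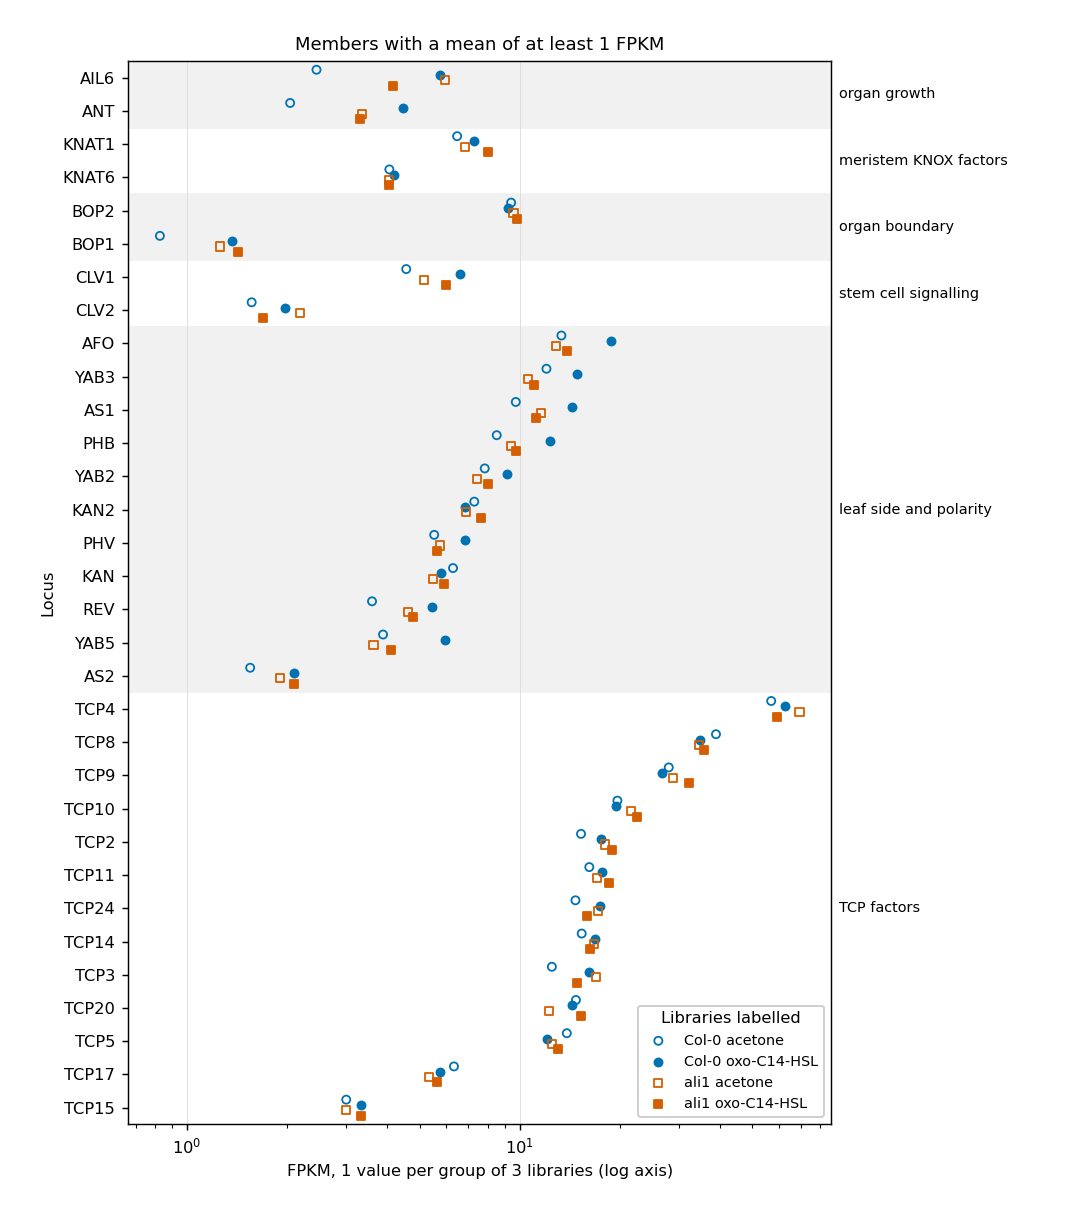
FPKM (log axis) of the 32 loci with a mean of at least 1 FPKM, by role, with circles for libraries labelled Col-0, squares for ali1, open symbols for acetone and filled ones for oxo-C14-HSL. The open circle is the leftmost symbol at 18 of the 32 loci, ANT and AIL6 among them, while the filled square is leftmost at none.

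The organ boundary genes act where growth is held back between meristem and leaf. The NAC factors CUC1, CUC2 and CUC3, which set this boundary, were all below 1 FPKM and higher after oxo-C14-HSL under the Col-0 label. CUC1 had 0.283 and 0.5247 FPKM there and 0.3968 and 0.4674 under ali1. CUC2 had 0.5156 and 0.881 against 0.5444 and 0.833, at log2 ratios of 0.67 and 0.53, the latter the highest of the boundary members under ali1. CUC3 had 0.2754 and 0.3858 FPKM under the Col-0 label and 0.5753 and 0.4372 under ali1, in opposite directions. LAS (LATERAL SUPPRESSOR), a GRAS factor needed for buds in the leaf axil, had 0.6142 and 0.8706 against 0.6385 and 0.6013.

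BOP1 and BOP2 encode paired BTB-ankyrin proteins that act at the base of the leaf. BOP1 (AT3G57130, chr3:21147558-21150238) had 0.8283 and 1.365 FPKM under the Col-0 label and 1.253 and 1.421 under ali1, with ratios of 1.58-fold and 1.12-fold. Its acetone group labelled Col-0 was the one low value, and the other 3 groups lay within 1.253 to 1.421 FPKM. BOP2 was about as high in every group, at 9.412, 9.209, 9.567 and 9.78 FPKM in the order Col-0 acetone, Col-0 oxo-C14-HSL, ali1 acetone and ali1 oxo-C14-HSL. The paralogues therefore differed in level. Their patterns also differed, but the log2 ratio of BOP1 under the Col-0 label, 0.66, came to 0.41 against loci of like level. It rests on about 92 and 162 fragments, a depth-scaled ratio of 1.65 (1.27 to 2.15).

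CUC1 and CUC2 are known targets of the microRNA miR164, and the sequences are shown because they tie these members together on a feature that the choice by name did not use. A search of the annotated mRNAs of all 46 members for the best ungapped match, with a penalty of 1 for each mismatch and 0.5 for each G:U pair, found a site with a penalty of at most 4.5 in these 2 members only, and the next best was 5.0. In the miRNA the capitals mark the seed (bases 2 to 8). In the sites the capitals mark bases that do not form a Watson-Crick pair with it. The sequence is that of MIR164a (chr2:19520770-19520790, plus strand), and the sites lie in the coding sequence at chr3:5111137-5111157 and chr5:21902301-21902321 of the RefSeq annotation of TAIR10.1.
miR164a: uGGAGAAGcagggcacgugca
CUC1 site: AgcacgugUccugUuucucca
CUC2 site: AgcacgugUccugUuucucca
The match is a description of the letters and not a measurement of the miRNA.

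The stem cell loop runs through the peptide CLV3, its receptors CLV1 and CLV2, and the homeodomain factor WUS that CLV3 signalling holds in check. CLV1, a receptor kinase, had 4.555 and 6.595 FPKM under the Col-0 label and 5.152 and 6.015 under ali1, higher after oxo-C14-HSL by log2 0.52 and 0.22. CLV2, a receptor-like protein without a kinase domain, had 1.563 and 1.971 under the Col-0 label and 2.182 and 1.687 under ali1, with log2 ratios of 0.32 and -0.35. Against loci of like level the Col-0 ratio of CLV2 came to 0.05. The signal itself and its target were at the limit of what these libraries hold. CLV3 had 0.03842, 0.03845, 0.04124 and 0.1462 FPKM in the 4 groups, about 2, 2, 2 and 6 fragments, and WUS was at or below 0.01353 FPKM, which is 1 fragment, and listed at 0 after acetone under the Col-0 label. No difference could be read from either at this depth.

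**Figure D4:**
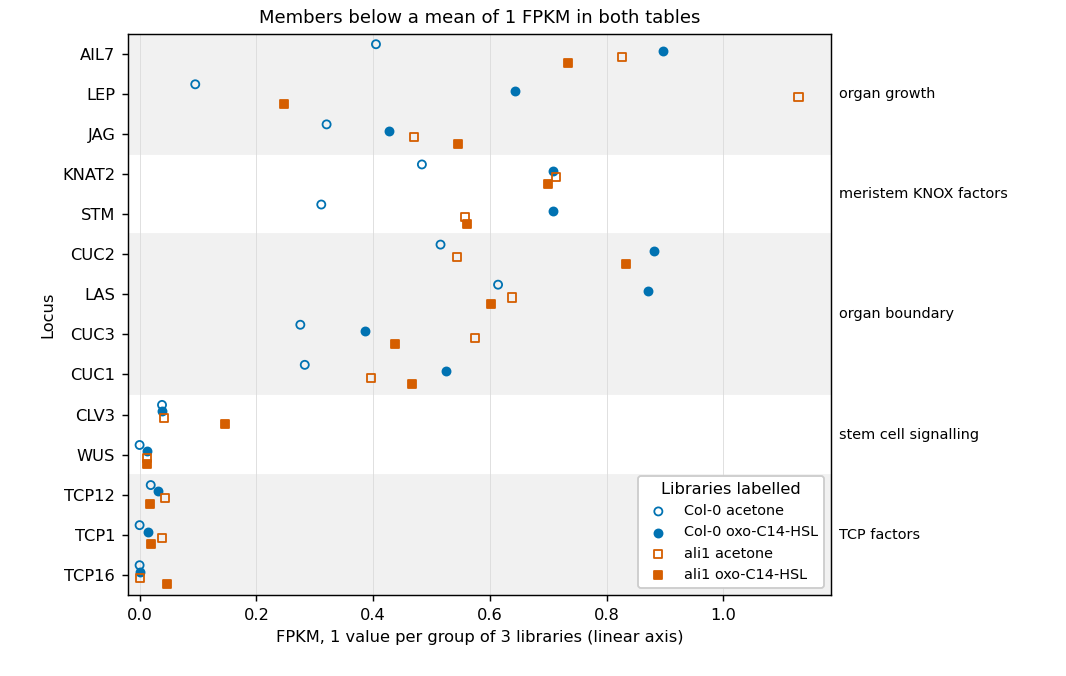
FPKM (linear axis) of the 14 members below a mean of 1 FPKM in both tables, with circles for libraries labelled Col-0, squares for ali1, open symbols for acetone and filled ones for oxo-C14-HSL. The filled circle lies to the right of the open one at 13 of the 14 loci, though by next to nothing at CLV3, and the squares go to either side. LEP has the widest range, from 0.09537 to 1.129 FPKM.

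The 14 low members were STM, KNAT2, CUC1, CUC2, CUC3, LAS, LEP, AIL7, JAG, CLV3, WUS, TCP1, TCP12 and TCP16. Of these, 13 were higher after oxo-C14-HSL in the table labelled Col-0 and 1, TCP16, was at 0 in both groups. CLV3, WUS and TCP1, which are among the 13, rest on at most 2 fragments in either Col-0 group. Among the 7867 nuclear loci that were as low in both tables and not at 0 throughout, 64.7% were higher. The summed level of the 14 members was 3.361 FPKM after acetone and 6.144 after oxo-C14-HSL. Under the ali1 label 7 were higher and 7 lower, beside 44.3% of 7908 loci higher, and the members' summed level was 5.987 and 5.372 FPKM. The sum after acetone was thus the lower of the 2 under the Col-0 label and the higher under ali1. The order under ali1 rests on LEP, whose own fall there, from 1.129 to 0.2481 FPKM, was larger than that of the sum.

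Leaf polarity genes formed the largest role group after the TCP factors, and all 11 passed the filter. Their median log2 ratio was 0.41 under the Col-0 label, with 9 of 11 above 0, beside 46.8% of all loci. Against loci of like level this median was 0.34. Under ali1 the median was 0.11, with 9 of 11 above 0, beside 53.2%. Their summed level was 79.58 FPKM after acetone and 102.4 after oxo-C14-HSL under the Col-0 label, and 80.08 and 84.01 FPKM under ali1. Here it was the oxo-C14-HSL group labelled Col-0 that stood apart as high.

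On the upper (adaxial) side, the HD-ZIP III homeodomain factors PHABULOSA (PHB), PHAVOLUTA (PHV) and REVOLUTA (REV) had a median log2 ratio of 0.53 under the Col-0 label and 0.05 under ali1. REV (AT5G60690, chr5:24396981-24405600 in the tables) had 3.595 and 5.44 FPKM under the Col-0 label and 4.616 and 4.789 under ali1. PHB had 8.521 and 12.34 against 9.409 and 9.733. PHV had 5.528 and 6.84 against 5.772 and 5.632. In each of the 3 the oxo-C14-HSL group labelled Col-0 was the highest of the 4 groups and its acetone partner the lowest. The span of REV takes in a convergent gene, AT5G60700, whose own value hardly differed between the Col-0 groups, at 12.21 and 12.42 FPKM.

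All 3 of these members carry a site for miR165 and miR166, which clear HD-ZIP III transcripts from the lower side of the leaf, and no other member had one at that penalty. The site is split by an intron in each gene, and is shown because it is the one feature of sequence common to the 3 factors that was searched for. miR165a (chr1:78932-78952, minus strand) and miR166a (chr2:19176241-19176261, plus strand) share their seed. In the sites the capitals mark bases that do not form a Watson-Crick pair with miR165a, and the penalty was 2.5 for each. The next best member had 6.5.
miR165a: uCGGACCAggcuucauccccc
miR166a: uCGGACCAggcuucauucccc
PHB site: UUgggaugaagccugguccgG
PHV site: UUgggaugaagccugguccgG
REV site: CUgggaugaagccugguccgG
The sites span chr2:14642530-14642666 in PHB, chr1:10799330-10799445 in PHV and chr5:24398787-24398898 in REV, all in coding sequence.

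The asymmetric leaves proteins (AS1, a MYB factor, and AS2, a LOB-domain protein) form a complex that keeps KNOX genes off in the leaf. AS1 had 9.722 and 14.3 FPKM under the Col-0 label and 11.57 and 11.22 under ali1, and AS2 had 1.547 and 2.093 against 1.907 and 2.098. The log2 ratios under the Col-0 label were 0.55 and 0.41, and against loci of like level 0.59 for AS1 and 0.17 for AS2. The span of AS1 also takes in the actin gene ACT1 on the opposite strand, which had 14.85 and 14.64 FPKM in the Col-0 groups. KNAT1, KNAT2 and KNAT6, which the complex is known to restrain, were not lower after oxo-C14-HSL under the Col-0 label.

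The YABBY factors, expressed on the lower (abaxial) side, were higher after oxo-C14-HSL under both labels, with median log2 ratios of 0.40 and 0.11 over 4 loci. YAB5 (AT2G26580, chr2:11303455-11307010) had 3.88 and 5.971 FPKM under the Col-0 label and 3.631 and 4.098 under ali1, with ratios of 1.53-fold and 1.12-fold. Unlike ANT and AIL6, its acetone group labelled Col-0 was not low, since it lay above the acetone group labelled ali1. AFO (FILAMENTOUS FLOWER) had 13.33 and 18.78 against 12.81 and 13.82, in the same order of groups as YAB5. YAB3 had 12.02 and 14.82 against 10.58 and 11.04, so that both Col-0 groups lay above both ali1 groups. YAB2 had 7.842 and 9.152 against 7.418 and 8.046.

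The KANADI factors, which also specify the lower side and oppose the HD-ZIP III factors, went the other way under the Col-0 label. KAN had 6.297 and 5.777 FPKM there and 5.495 and 5.921 under ali1. KAN2 had 7.294 and 6.854 against 6.873 and 7.617. The log2 ratios were -0.12 and -0.09 under the Col-0 label, and 0.11 and 0.15 under ali1. These were the only polarity loci below 0 in the Col-0 table, though by small amounts. The span of KAN takes in AT5G16550, whose own level was 17.73 and 14.75 FPKM in the Col-0 groups.

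The TCP loci held the most abundant members by FPKM, and none of the 13 past the filter reached 1.5-fold under either label. Class I members are mostly known to promote cell division, and the class II members of the CINCINNATA (CIN) type to end it as a leaf matures. TCP4, a CIN factor, was the most abundant member of all with 56.93 and 62.6 FPKM under the Col-0 label and 69.25 and 59.31 under ali1, at log2 ratios of 0.14 and -0.22. The class I factor TCP8 had 38.85 and 34.68 against 34.47 and 35.7 (log2 -0.16 and 0.05). TCP9, also class I, had 28.02 and 26.77 against 28.89 and 32.17 (log2 -0.07 and 0.15). These were of opposite sign to TCP4 under both labels. TCP9 shares its span with a long non-coding RNA gene, AT2G45685, at 4.459 and 2.601 FPKM in the Col-0 groups.

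TCP10 followed with 19.64 and 19.4 FPKM under the Col-0 label and 21.6 and 22.5 under ali1, and TCP2 with 15.27 and 17.53 against 18.05 and 18.86. TCP3 had 12.48 and 16.19 against 16.98 and 14.85, with the highest ratio of the family under the Col-0 label (log2 0.37) and -0.19 under ali1. TCP24 had 14.69 and 17.36 against 17.14 and 15.96. In TCP3, TCP4 and TCP24 the value was thus higher after oxo-C14-HSL under the Col-0 label and lower under ali1, each starting from a higher acetone value under ali1.

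These 5 CIN factors, TCP2, TCP3, TCP4, TCP10 and TCP24, are known targets of miR319, and the search found a site of penalty at most 4.5 in these 5 members alone, with 5.0 for the next. Their median log2 ratio was 0.20 under the Col-0 label and -0.10 under ali1. The miRNA is MIR319a (chr4:12353109-12353129, plus strand). The sites lie in coding sequence at chr2:13221210-13221230 (TCP10), chr3:5063300-5063320 (TCP4), chr4:10163402-10163422 (TCP2), chr1:10628989-10629009 (TCP24) and chr1:19850522-19850542 (TCP3), and are printed from the best match down, with capitals for bases not in a Watson-Crick pair.
miR319a: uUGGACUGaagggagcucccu
TCP10 site: aAggGgUAcccuucaguccaG
TCP4 site: GAggGgUCcccuucaguccaG
TCP2 site: CAggGgGAcccuucaguccaa
TCP24 site: UAggGgGAcccuucaguccaa
TCP3 site: GAggGgUCcccuucaguccaU
The run that pairs with the seed is the same in all 5.

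The 2 CIN loci without such a site, TCP5 and TCP17, went the other way. TCP5 had 13.84 and 12.1 FPKM under the Col-0 label and 12.46 and 13.06 under ali1, and TCP17 had 6.338 and 5.737 against 5.338 and 5.626. Their median log2 ratio was -0.17 under the Col-0 label and 0.07 under ali1, so that the medians of the CIN factors with and without a site were on opposite sides of 0 under both labels. TCP10, at -0.02 and 0.06, and TCP2, at 0.20 and 0.06, were exceptions among the 5. With 5 loci and 2, and differences of this size, that is a description of these values only. The class I loci TCP8, TCP9 and TCP20, also without a site, had the signs of TCP5 and TCP17, and TCP14 had the reverse. The counting intervals of TCP17 (0.796 to 1.03 and 0.92 to 1.21) covered 1 under both labels. That of TCP5 covered it under ali1 (0.971 to 1.13) but not under the Col-0 label (0.81 to 0.944). The mature miRNAs were not measured here. Of 15 precursor loci of miR164, miR165, miR166 and miR319 in the tables, 14 were listed at 0 in each Col-0 group, and at such short loci an FPKM rests on very few fragments.

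The other class I loci were TCP11, TCP14, TCP15, TCP16 and TCP20. TCP14 had 15.34 and 16.83 FPKM under the Col-0 label and 16.72 and 16.23 under ali1, and TCP15 had 3.007 and 3.342 against 3.012 and 3.329, nearly the same values under both labels. TCP20 had 14.74 and 14.33 against 12.24 and 15.22, with the highest ratio of the 32 loci past the filter under the ali1 label (log2 0.31). The TCP11 locus, with 16.17 and 17.7 against 17.0 and 18.47 FPKM, also holds AT5G08340 and ATSTE14B and cannot be split between them. Over the 6 class I loci past the filter the median log2 ratio was 0.04 under the Col-0 label and 0.13 under ali1. TCP16, and TCP1 and TCP12 of the TB1 type, were between 0 and 0.04766 FPKM in every group.

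Across the 4 groups, the acetone group labelled Col-0 was the lowest at 18 of the 32 loci past the filter, or 56.2%, beside 25.5% of 16844 nuclear loci. The oxo-C14-HSL group labelled Col-0 was lowest at 5, beside 23.9% of all loci, the acetone group labelled ali1 at 9, beside 27.5%, and the oxo-C14-HSL group labelled ali1 at 0, beside 22.9%. With no filter on level the first was lowest at 21 of the 30 loci outside the TCP family and 8 of the 16 TCP loci, beside 25.3% of all loci. Outside the TCP family, 27 of 30 loci were higher after oxo-C14-HSL under the Col-0 label, beside 52.7% of all loci that were not at 0 in both groups, and 20 of 30 under ali1, beside 50.3%. Of these 30 loci, 11 lay below the filter. Among nuclear loci as low, 64.7% were higher under the Col-0 label and 44.3% under ali1. Between the acetone groups, the ali1 value was higher at 21 of 32 loci, beside 40.9% of all loci. The median log2 difference there was 0.07, where all loci had a median of -0.04. Between the oxo-C14-HSL groups the ali1 value was higher at 13 of 32, beside 44.8% of all loci. The median there was -0.05, beside -0.02 for all loci. Taken as a whole, the members thus stood above all loci between the acetone groups and near them between the oxo-C14-HSL groups. The latter median joins unlike parts. Outside the TCP family the ali1 value after oxo-C14-HSL was higher at 6 of 19 loci, with a median of -0.18. Among the TCP loci it was higher at 7 of 13, with a median of 0.04. Between the acetone groups these medians were 0.08 and 0.07. The runs were scaled separately.

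Other genes of the same pathways, from lists drawn up by function, are given by their counts and medians. Of 11 homologues and partners of the KNOX factors 9 passed the filter, with medians of 0.09 under the Col-0 label and -0.01 under ali1, and the KNOX partner ATH1 was the furthest out at 2.448 and 4.625 FPKM in the Col-0 groups and 2.95 and 3.46 in the ali1 groups. Of 14 other genes of the CLAVATA pathway and WUS partners 11 passed, with medians of 0.42 and -0.0042. Under the Col-0 label 10 of 11 were above 0, beside 46.8% of all loci, and under ali1 5 of 11, beside 53.2%. The receptor kinase BAM3, a relative of CLV1, had 4.202 and 8.482 FPKM in the Col-0 groups and 7.331 and 7.74 in the ali1 groups. Among 18 other polarity genes 12 passed, with medians of 0.44 and 0.04, and the remaining HD-ZIP III genes led them. ATHB8 had 6.239 and 9.435 FPKM and ATHB15 had 4.981 and 7.515 in the Col-0 groups, close to the ratios of REV and PHB.

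Of 20 other leaf growth genes 13 passed, with medians of 0.46 and 0.0033. The growth-regulating factor GRF4 had 0.9911 and 2.339 FPKM in the Col-0 groups and 1.659 and 1.871 in the ali1 groups, and CYP78A5 (KLUH), which promotes organ growth from the organ's edge, had 3.054 and 6.738 against 7.176 and 8.271. Of 11 other boundary genes only 3 passed under the Col-0 label and 4 under ali1, with medians of 0.34 and -0.08. Against loci of like level the Col-0 medians of all these lists were lower. They came to 0.0025 for the KNOX homologues and partners and 0.10 for the boundary genes. For the CLAVATA, polarity and leaf growth lists they came to 0.31, 0.32 and 0.33.

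Markers of other tissues were read beside these values. Of 9 markers of dividing cells, 8 were higher after oxo-C14-HSL under the Col-0 label, beside the same 52.7% of all loci and 64.7% of low ones. Under ali1, 7 were higher, beside 50.3% and 44.3%. Past the filter were 6 under the Col-0 label, with a median of 0.70, which came to 0.54 against loci of like level. Under ali1 4 passed, with a median of 0.12. Over the 8 that are alone in their locus the summed level was 8.814 and 15.79 FPKM against 9.368 and 10.57. The marker left out, CYCD3;1, shares its locus with AT4G34150 and was the one lower under the Col-0 label. It had 191.4 and 163.1 FPKM there and 181.8 and 198.5 under ali1. The mitotic syntaxin KN (KNOLLE) had 1.827 and 3.802 FPKM in the Col-0 groups, and the cyclin CYCB1;2 had 0.7739 and 1.693. In the ali1 groups KN had 1.909 and 2.036 FPKM, and CYCB1;2 had 0.7464 and 0.9537. The oxo-C14-HSL group labelled Col-0 was thus the high one for KN and CYCB1;2, and its acetone partner lay close to the acetone group labelled ali1. The kinase CDKB1;1, named after its values were seen, was below the filter under both labels. It had 0.4829 FPKM in the Col-0 acetone group, lower than in both ali1 groups at 0.845 and 0.8945. In CYCB1;1, CDKB2;1, KN and AUR1 the Col-0 acetone group was also lower than both ali1 groups. In CYCB1;2, CYCB1;3, CDKB2;2 and CYCD3;1 it was not.

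Of 15 root markers, 4 passed the filter, with medians of 0.01 and -0.01. Over the 14 alone in their locus their summed level was 48.98, 48.72, 55.38 and 58.08 FPKM in the 4 groups. SCR, CASP1 and SHR made up nearly all of the first sum, at 34.95, 10.01 and 3.389 FPKM. The sums thus say little of the low root markers. CASP1 had 10.01 and 6.854 FPKM under the Col-0 label and 9.022 and 15.38 under ali1. With no filter, 14 of the 15 were higher after oxo-C14-HSL under the Col-0 label. Over all loci the share was the same 52.7%, and over low ones 64.7%. Under ali1, 2 of 15 were higher, beside 50.3% and 44.3%. Root markers listed at 0 were 2 after acetone under the Col-0 label and 1 after oxo-C14-HSL under ali1. The 10 photosynthetic leaf markers had medians of 0.14 under the Col-0 label and -0.08 under ali1. Above 0 were 8 of 10 under the Col-0 label, beside 46.8% of all loci, and 1 of 10 under ali1, beside 53.2%. Against loci of like level their Col-0 median was 0.18. Of 8 flower markers 6 were below the filter, and PI (PISTILLATA), a petal and stamen gene, had 106.4 and 50.37 FPKM in the Col-0 groups and 75.47 and 93.87 in the ali1 groups. The part that division, root content or leaf content had in the members' ratios was not tested.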

How the data were processed

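Gene-level tables of 2 comparisons over 12 libraries were used. Per the labels and the methods, reads of 100 bp from single ends were mapped to TAIR10 by the authors with RNAStar. Cufflinks 2.2.1.0 and Cuffmerge gave the transcript models, and Cuffdiff 2.2.1.5 was run once per genotype on the treatment pair. The deposited FPKM values are 1 per group, pooled by the authors over 3 libraries. The annotation file, the scaling between libraries and the use of strand were not stated in these sources. The tables also hold the authors' fold changes, test statistics, p-values and q-values, which were not used.

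Members were matched by name among 36101 loci, and 73 organelle loci were left out. Ratios used a pseudocount of 0.1 FPKM, with a filter at a mean of 1.0 FPKM over the 2 groups. A difference was counted from 2-fold, and from 1.5-fold as the lower limit. The running median took 501 loci. Fragments were estimated from FPKM times mRNA length less 200 bases, whose low values fall on even steps. Between 75.4% and 97.9% of low values lay within 0.1 of a whole number, the lowest share in the Col-0 acetone group, so fragment numbers are approximate. This estimate and the comparison of the lowest of the 4 groups were added after the data were seen. Intervals are exact binomial at 95%. miRNA and mRNA sequences were read from the RefSeq TAIR10.1 genome, whose chromosomes carry the names used in the tables. All members are named, with full values for those past the filter. Of the other lists, at most 3 genes each were named, by largest ratio. As an exception, the dividing cell markers other than KN and CYCB1;2 were named after their values were seen. Members and lists were chosen with earlier results of these data known. Python 3.11.15, numpy 2.4.6, pandas 2.3.3, scipy 1.17.1 and matplotlib 3.10.9 were used.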

Additional observations from a re-analysis of the deposited data

How the results depend on the processing

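No paired analysis was possible because the tables hold 1 value per group, and for the same reason no library could be left out. Of 32 members, the count past 2-fold under the Col-0 label was 2, and became 4 at 1.5-fold, 3 (with LEP as higher) with no filter, 1 (AIL6) against the running median, and 0 with a pseudocount of 1, with a mean of at least 5 FPKM or with TCP factors only. Under the ali1 label the count of 0 became 1, LEP as lower, with the filter at 0.5 FPKM or left off. The median log2 ratio under the Col-0 label was 0.41 without TCP factors. The median difference between the labels was 0.34 without TCP factors, 0.0078 with TCP factors only and 0.10 at a mean of at least 5 FPKM. The members lowest in the Col-0 acetone group, 18, were 11 without TCP factors, 7 with TCP factors only, 11 at 5 FPKM and 29 with no filter. In the other alternatives these values moved by less than 0.1 (log2) or at most 1.5 times. Of 320 ratios of single members recomputed, 14 moved by at least 0.1 and 5 changed sign, the latter all reported at 0.07 or less in size. The tables give no spread, and depth limits CLV3, WUS, TCP1, TCP12 and TCP16 to a few fragments.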
